A study of Danio rerio with 9 samples.

Results

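Transcript levels of zebrafish (Danio rerio) embryos before the spreading of the blastoderm were compared with those during its first part. The earlier side held the 64-cell, high and sphere stages and the later side the 30% epiboly, 50% epiboly and shield stages, 1 array each, so that 6 of the 9 arrays of the series entered the comparison. All embryos were uninjected and came from outbred wild-type stock raised at 28.5 °C, with 30 to 50 embryos of a single clutch pooled for each stage. On each array the stage RNA was labelled with Cy5 and competed with a Cy3-labelled pool of equal amounts of RNA from the 9 stages, so every value is a log2 ratio of a stage to the same pool. Of 16178 probe IDs on the array, 16105 were bright enough on at least 3 of the 6 arrays to be tested.

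No stage was hybridised more than once. Neighbouring stages stand in for replicates. The error of each test is built from the spread among 3 neighbouring stages, which mixes array noise with real change within a side. Limma draws the spread of each probe towards a value shared by all probes. A probe with little spread of its own is thus tested against a larger error. A p-value here says how a difference between the sides compares with that error, and not how it would compare with repeat embryos. The arrays measure whole embryos, in which fewer cells of a type and less RNA per cell cannot be told apart. The name "early gastrula" fits 50% epiboly and shield. In standard staging 30% epiboly still counts as late blastula, so the later side is called 30% epiboly to shield here.

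A zebrafish embryo first develops on RNA that the mother stored in the egg. Transcription from the embryo's own genome begins in earnest at the midblastula transition, shortly before the high stage. Maternal RNAs are then cleared, in part through the microRNA miR-430, while newly made transcripts accumulate. At sphere the yolk and the blastoderm meet at a flat boundary, and epiboly, the movement of the blastoderm over the yolk, starts soon afterwards. At 50% epiboly cells begin to turn inward, and at the shield stage the dorsal organizer becomes visible as a thickening.

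Many transcripts changed level. Between 64-cell to sphere and 30% epiboly to shield 3902 probes rose, 24.2% of those tested, and 3091 fell, 19.2% of those tested (limma, adjusted p under 0.05). Together they made up 43.4% of the tested probes, and 9112 were not called. The median difference on the log2 scale was 0.85 among the probes that rose (quartiles 0.57 and 1.43) and -0.93 among those that fell (quartiles -1.37 and -0.64), against a median absolute difference of 0.36 over all tested probes. Over all tested probes the median SD of the 3 log2 ratios of a side was 0.16 at 64-cell to sphere and 0.17 at 30% epiboly to shield. Among the probes that rose it was 0.18 and 0.16, and among those that fell 0.19 on both sides. The call picks probes whose difference is large beside this spread, so their differences are no separate measure of precision. Neither side varied more in general, as the SD was the larger one at 64-cell to sphere for 48.4% of the probes.

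Loess sets the ratios of an array around 0, so a rise or a fall is measured against the array's other transcripts and not per embryo. The balance of gains and losses moved with the scaling. Loess gave 55.8% rising among the called probes, while centring each array on its median gave 46.4%, with 3101 rising and 3580 falling. In the authors' value table as deposited, which is not centred, the share of rising probes was 29.3%, with 1198 rising and 2884 falling. There the median difference of all probes was -0.23, against 0.05 after loess. The median of that table was 0.02 at 64-cell and between -0.95 and -0.80 on the other arrays compared. Limma also estimated nearly the same variance for every probe in it, so its calls are not comparable with the others. With each array's median subtracted its share was 46.4%.

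Large changes were more often gains than losses after loess. A rise of at least 2-fold was found for 1591 called probes and a fall of that size for 1381. At least 4-fold the numbers were 526 and 242, at least 8-fold 188 and 29, and at least 16-fold 53 and 6. The ratios to the pool had different ranges at their lower and upper ends. At 64-cell to sphere the mean log2 ratio went down to -6.19 but up to 1.88 only, with 503 probes under -2 and 0 over 2. At 30% epiboly to shield it went from -4.51 to 1.76, with 44 probes under -2 and 0 over 2. The pool holds every stage, the 6 arrays' own RNA included, which limits how far a stage can stand above it. Whether this limit had a part in the ranges seen here was not tested.

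**Figure D1:**
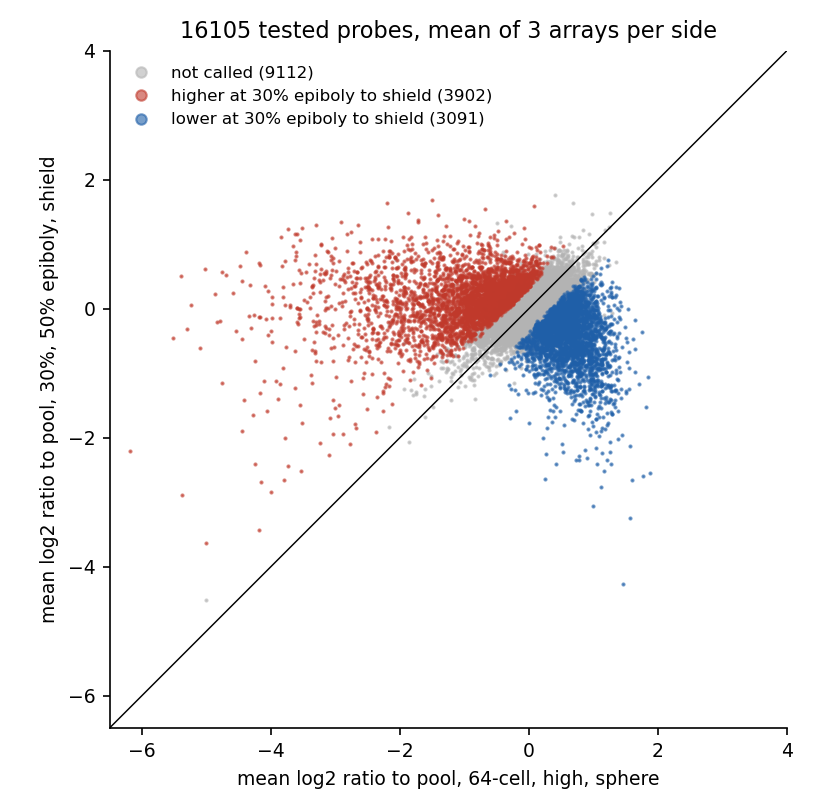
Mean log2 ratio to the pool of each tested probe at 64-cell, high and sphere (horizontal) and at 30% epiboly, 50% epiboly and shield (vertical), 3 arrays each, with the line of equality in black. The 3902 probes that rose (red) spread to the left down to -6.19, while the 3091 that fell (blue) have earlier means of at most 1.88.

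The sides were also separated array by array. For 5034 probes (31.3% of those tested) all 3 later arrays lay above all 3 earlier ones, and for 3836 (23.8%) they lay below, together 55.1%. In the pool channel, where the same RNA was on every array, the corresponding share was 10.7%. Of the 6993 called probes 6911 had no overlap between the sides, and 82 were called although their sides overlapped. The 6911 follow in part from the call and are no separate evidence. A ratio that drifts steadily over the ordered stages has no overlap either, so the lack of overlap does not show a break. Another 1959 probes had no overlap but were not called. The distance between the nearest arrays of the 2 sides was at least 1 on the log2 scale for 879 gains and 649 losses.

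The course of the called probes within each side was shallow and the break between the sides steep. Among the rising probes the median log2 ratio went from -0.82 at 64-cell through -0.76 at high to -0.64 at sphere. It was 0.09 at 30% epiboly, and 0.22 at both 50% epiboly and shield. Between sphere and 30% epiboly the median thus moved further than within either side. The call itself favours this shape, because it picks probes whose sides differ more than the stages within them, and the same holds for the positions of sphere and 30% epiboly given below. The falling probes mirrored this, with medians going from 0.67 at 64-cell through 0.66 at high to 0.50 at sphere. It was -0.31 at 30% epiboly, -0.47 at 50% epiboly and -0.39 at shield. Probes that were not called kept medians between 0.01 and 0.05 at all 6 stages.

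**Figure D2:**
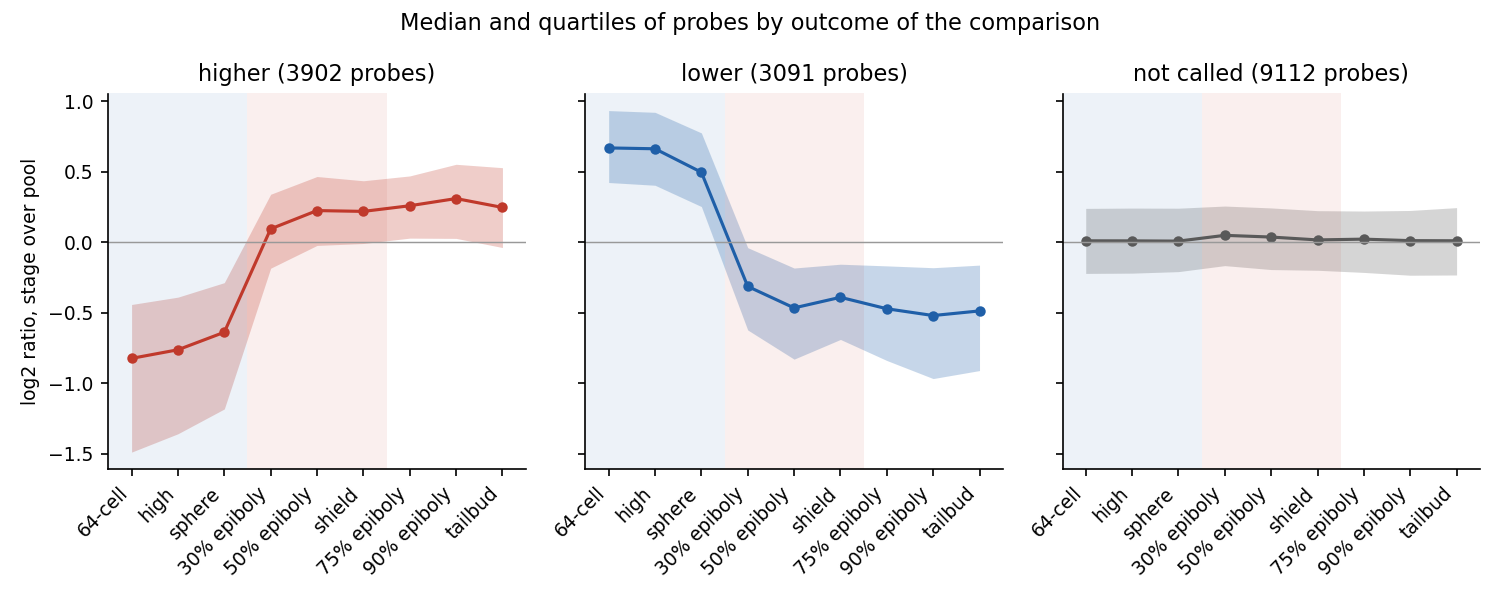
Median log2 ratio to the pool (points and lines) and quartiles (bands) at the 9 stages for probes that rose, fell or were not called between the earlier side (blue shading) and the later side (red shading). The medians cross 0 between sphere and 30% epiboly in both called groups and change little after 50% epiboly; the 3 unshaded stages took no part in the calls.

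Each probe was then assigned to the step between consecutive stages at which its ratio changed most, which describes the 6 arrays without a test. For 3048 of the rising probes (78.1%) and 2361 of the falling ones (76.4%) this was the step from sphere to 30% epiboly. The choice of called probes favours that step, since it is the one that separates the sides. By the same choice the step is made rarer among the probes not called, so those are no independent comparison. Among the probes that were not called the same step held 17.9%, less than the 23.3% from 30% to 50% epiboly and the 22.8% from 50% epiboly to shield. A minority of called probes had its largest step inside a side. The step from high to sphere was the largest for 353 rising and 250 falling probes, and the step from 30% to 50% epiboly for 259 rising and 309 falling probes.

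**Figure D3:**
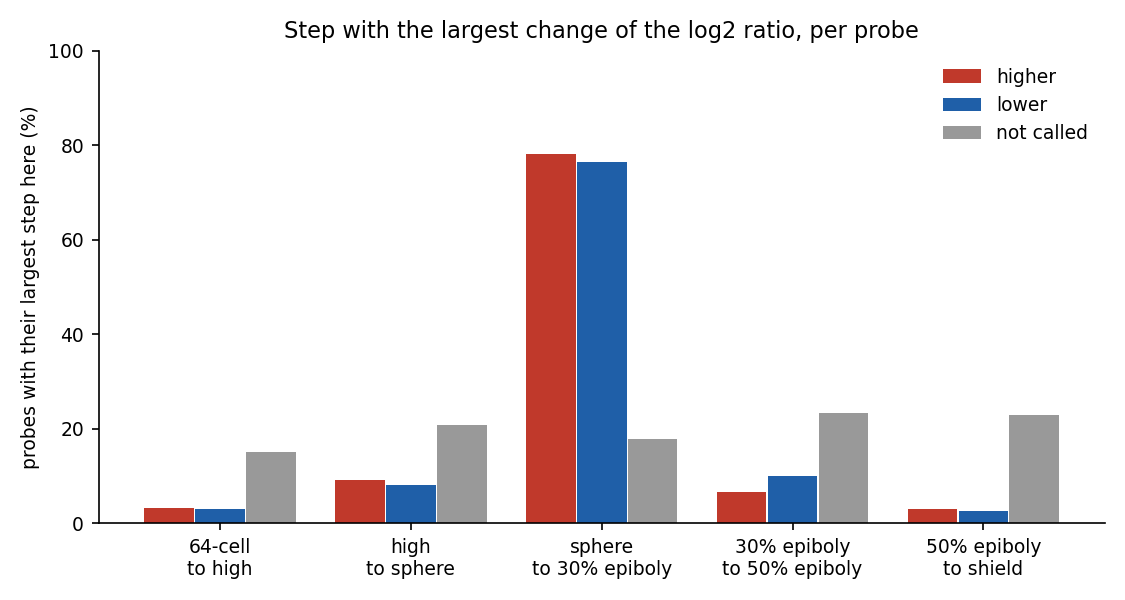
Share of probes (vertical axis, percent) whose log2 ratio changed most at each of the 5 steps between consecutive stages, for probes that rose, fell or were not called. The step from sphere to 30% epiboly holds 78.1% of gains, 76.4% of losses and 17.9% of probes not called. The call itself favours this step among called probes and makes it rarer among the rest.

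Sphere was the member of the earlier side that stood nearest to the later one. It was the closest of the 3 earlier arrays for 57.5% of the probes that rose and 54.4% of those that fell, and 30% epiboly was the closest of the later arrays for 57.8% and 49.7%. For the probes that changed at least 2-fold, the position of sphere was measured on the way from the mean of 64-cell and high to the later side's mean. Its median position was 14.6% of the way among the 1591 rising probes and 12.8% among the 1381 falling ones. Sphere had covered at least 50% of the way for 141 rising probes (8.86%) and 79 falling ones (5.72%). For 334 rising and 389 falling probes it lay on the far side of the earlier mean. The array at 30% epiboly had, by the same measure against the mean of 50% epiboly and shield, covered a median of 87.0% of the way among rising and 91.6% among falling probes. It had passed 50% of the way for 1538 of the 1591 and 1316 of the 1381.

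A model with a linear term in stage order beside the step was fitted to the same 6 arrays. It asks for a jump between the sides beyond a slope shared by both. The step remained called for 419 rising probes (2.60% of those tested) and 370 falling ones (2.30%; limma, adjusted p under 0.05). Of these, 788 were called in the same direction without the slope. Step and order are themselves correlated over these arrays (r = 0.88), so this fit has little power to separate them. No probe had a called slope. Of the 16105 tested, 835 had one at an unadjusted p under 0.05. In the pool channel 800 (4.97%) passed this threshold, but in another test, the comparison of the sides without a slope. Since no slope passed the adjustment, the 835 are not read as probes with a slope. The estimated step kept the sign of the difference for 98.5% of the called probes. Among those that differed at least 2-fold its median size was 76.8% of the full difference.

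The change between the sides was set against the blank spots of each array, which carry no probe. A stage signal was counted as detected when it exceeded 95% of the 262 blank spots of that array. Of the 1591 probes that rose at least 2-fold, 848 (53.3%) were detected on all 3 earlier arrays already, and 459 (28.8%) on none of them. On the later side 1346 (84.6%) were detected on all 3 arrays. Of the 1381 probes that fell at least 2-fold, 1323 (95.8%) were detected on all 3 earlier arrays. On the later side 459 of these (33.2%) were detected on all 3 arrays, 463 on 1 or 2 and 459 on none. By these counts gains were more often a rise of a signal already seen, while falling probes divided evenly over the 3 outcomes. Both depend on the brightness of single arrays, given below, with shield the dimmest of the later side.

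Over all tested probes 237 passed from no detection on the earlier side to detection on all 3 later arrays, and 729 passed the other way. Among them 236 and 626 were called, with median differences of 2.38 and -1.08. Detection uses the stage signal that also enters the ratio. These calls and differences thus follow in part from the choice of probes and are no separate evidence. The counts of 237 and 729 also depend on the brightness of single arrays. Leaving out 1 array makes the rule easier to meet, so the counts could only stay or rise. How far they rose differed between arrays. There were 240 to 330 gained signals, the most without shield, and 733 to 1090 lost ones, the most without 30% epiboly. The share of tested probes detected was 64.0% at 64-cell, 56.5% at high and 57.1% at sphere, and 53.5% at 30% epiboly, 56.9% at 50% epiboly and 40.6% at shield. The 64-cell array had the highest median stage signal of the 6 (995) and shield the lowest (324.5).

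Calls were more frequent among bright probes. Of the 5842 probes detected on all 6 arrays 56.8% were called, and of the 4898 detected on none 13.9%. Probes detected on none made up 437 (11.2%) of the gains and 244 (7.89%) of the losses. A test of only the 9216 probes detected on all arrays of at least 1 side called 2965 rising (32.2%) and 2627 falling ones (28.5%). The tested probes were also divided into 3 groups of equal size by their pool signal. In these, 7.17% of the dimmest rose and 10.4% fell, while 39.8% of the brightest rose and 24.3% fell. The middle group lay between, with 25.7% and 22.9%. The share that was called and at least 2-fold went from 3.04% in the dimmest to 33.5% in the brightest group. The standard error from limma did not shrink with brightness, at a median of 0.14 in the dimmest and 0.17 in the brightest group. It is drawn towards a value shared by all probes and includes real change within a side. It therefore does not show how array noise depends on brightness. The median pool signal of the dimmest group was 438. The 95th percentile of blanks in that channel ran from 405 at shield to 530 at 30% epiboly. Many ratios of the dimmest group were thus measured close to background, where a small standard error is no sign that a change could be seen.

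The pool channel gave a measure of what arrays alone contribute, because its RNA was the same throughout. The same comparison of the sides in that channel, quantile normalized between the 6 arrays, called 0% of the 16105 probes (limma, lowest adjusted p = 0.29). At an unadjusted p under 0.05 there were 800 (4.97%), and centring the channel on its median also gave 0 calls. The pool differed at least 2-fold between the sides for 84 probes, and the stage channel processed the same way for 3454. Among the called probes the median absolute difference was 0.96 in the stage channel and 0.09 in the pool channel. In the stage channel alone 2767 of the 3902 gains and 2842 of the 3091 losses were called in the same direction. The called probes were chosen by a ratio that contains the stage signal of these arrays. Their large difference and repeated calls in the stage channel thus follow in part from that choice and are no separate evidence. The pool was always Cy3, so it cannot show an effect confined to Cy5.

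**Figure D4:**
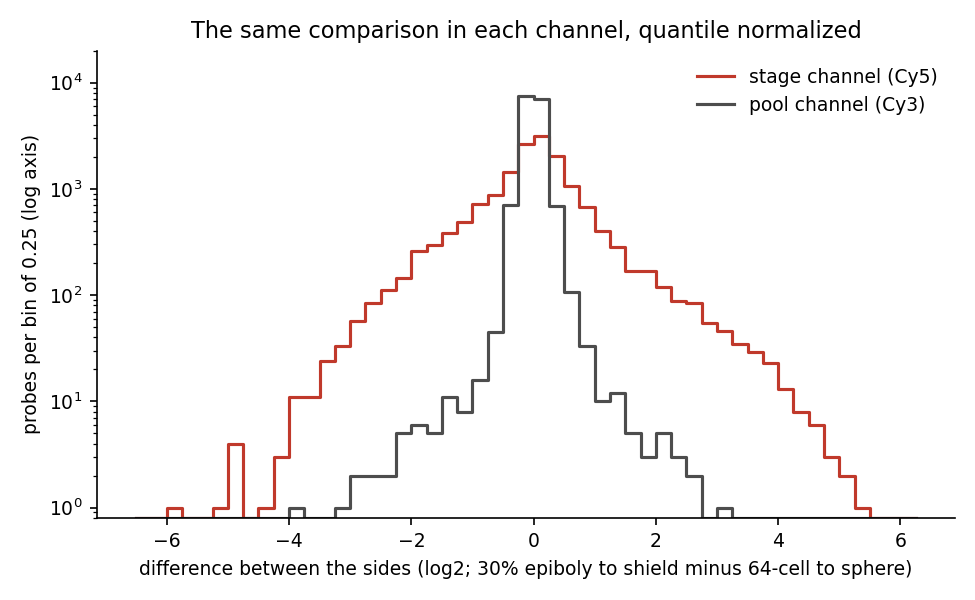
Number of probes (log axis) by their difference between the sides, in bins of 0.25 on the log2 scale, for the stage channel and the pool channel, each quantile normalized between the 6 arrays. Bins without a probe lie on the lower edge. In the stage channel 3454 probes differ at least 2-fold and in the pool channel 84.

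Control spots, which took no part in the fits, moved with the sides too. The 31 spots named pooled control had a mean log2 ratio of -1.01 ± 0.086 (SD, n = 3 arrays) at 64-cell to sphere and -0.11 ± 0.043 at 30% epiboly to shield. For the 172 spots of CGENZFCTRL_40001_0 the means were -0.92 ± 0.12 and -0.26 ± 0.12. Blank spots stayed at 0.65 ± 0.022 and 0.68 ± 0.010. What the control spots carry is not stated in the labels, and their part in the result was not tested.

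None of the files gives a gene name to the CGENXEB IDs. To show how single probes behaved, 2 rising and 2 falling IDs are given, those with the largest differences among called probes that were detected on all 6 arrays, unflagged by the image software and under a signal of 60000. These 4 were chosen for their size on the same arrays, so their folds, intervals and p-values are not corrected for that choice. Values of single arrays follow in the order of the stages. The log2 ratio of CGENXEB_456009011_0 was -5.12, -4.42 and -1.34 on the earlier arrays (64-cell, high and sphere) and 1.11, 1.30 and 1.05 on the later ones (30% epiboly, 50% epiboly and shield). The sides did not overlap, and sphere stood more than halfway up from the 2 stages before it. The later side was higher by 4.78 ± 0.81 (SE, limma, adjusted p = 0.0017), or 27.4-fold with a 95% interval of 7.57-fold to 99.1-fold. Its raw stage signal was 1332, 800 and 6666 before and 38046, 29544 and 15601 after the break. Its raw pool signal ranged from 6286 at shield to 24214 at 64-cell, without a break between the sides.

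CGENXEB_456007052_0 followed nearly the same course. Its log2 ratio was -5.47, -4.60 and -0.71 on the earlier arrays and 1.15, 1.22 and 1.11 on the later ones. Again sphere stood between the sides, and the later arrays lay close together. The difference was 4.75 ± 1.0 (limma, adjusted p = 0.0055), a 27.0-fold rise with an interval of 5.37-fold to 135-fold. At 64-cell and high its signal was 1.09 and 1.16 times the 95th percentile of blanks, so its lowest ratios were measured close to background. The wide interval of both rising probes goes with sphere: the 3 later arrays had an SD of 0.13 for the first probe and 0.057 for the second, the 3 earlier ones of 2.01 and 2.54. Without the sphere array the differences were 5.92 and 6.19. With the slope in stage order added, the step was 1.99 (adjusted p = 0.51) and 1.22 (adjusted p = 0.79), and neither was called. From 75% epiboly to tailbud the ratios came down, to -0.11 for the first and 0.33 for the second probe at tailbud.

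CGENXEB_456014890_0 was high first and low later. Its log2 ratio was 1.23, 1.63 and 0.97 on the earlier arrays and -1.49, -3.02 and -2.73 on the later ones. The sides were far apart, and 30% epiboly lay between the earlier stages and the other 2 of its side. The probe fell by 3.69 ± 0.37 on the log2 scale (limma, adjusted p = 0.00011), 12.9-fold with an interval of 7.22-fold to 23.0-fold. Its raw stage signal was 43225, 20221 and 13838 before and 3189, 974 and 795 after. At tailbud the ratio was -3.79. With the slope added the step was -2.57 (adjusted p = 0.076) and no longer called.

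CGENXEB_456013836_0 came closest of the 4 to a plain step. Its log2 ratio was 1.31, 1.49 and 1.35 on the earlier arrays, with an SD of 0.093. It was -1.48, -2.42 and -2.18 on the later ones, with an SD of 0.49. It fell by 3.41 ± 0.23 (limma, adjusted p = 2.1e-05), 10.6-fold with an interval of 7.45-fold to 15.2-fold. The step was called with the slope added as well, at -2.92 (adjusted p = 0.018). At 50% epiboly and shield its stage signal was 513 and 506, or 1.33 and 1.24 times the 95th percentile of blanks, so the low ratios are close to what the arrays can measure. Its ratio then stayed between -2.43 and -2.32 on the 3 arrays that followed. For these 4 probes the difference between the sides in the pool channel was between -0.20 and 0.18.

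Only 2 probes of the array carry a public accession. NM_131339 is rarga, the gene of a receptor for retinoic acid (gamma a). Such receptors sit in the nucleus and switch target genes in response to retinoic acid, a signal that patterns the embryo from head to tail. The log2 ratio of rarga was 0.44, 0.30 and -0.36 on the earlier arrays and -1.29, -0.86 and -0.92 on the later ones. All 3 later arrays lay below all 3 earlier ones. The means were 0.13 ± 0.43 and -1.02 ± 0.23 (SD, n = 3 arrays each). The probe fell by 1.15 ± 0.22 (SE, limma, adjusted p = 0.0033), 2.22-fold with an interval of 1.56-fold to 3.16-fold. Only 2 of the 3 later arrays were above the blanks, and those by little, so this fold may understate the fall. It is not a firm lower bound either, since its interval reaches down to 1.56-fold. So close to the blanks, the later ratios give no order among themselves. An exact permutation test over the 6 arrays gave p = 0.10, the smallest that 3 against 3 can give (two-sided).

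The raw signals of rarga were low on the later side. They were 5294.5, 1634 and 1368.5 on the earlier arrays and 555, 428 and 320 on the later ones. Against the 95th percentile of blanks this was 1.08 times at 30% epiboly, 1.11 times at 50% epiboly and 0.79 times at shield, where the signal was not above the blanks. In the stage channel alone the fall was larger, with a difference of -1.75 (adjusted p = 0.00026). Its size was not resolved beyond 2-fold: a test against a difference of 1 on the log2 scale did not call it (adjusted p = 1), nor did the fit with a slope (step of -0.83, adjusted p = 0.41). The low ratio did not last: the 75% epiboly array gave -0.76, the 90% epiboly array 0.12 and the tailbud array 0.61.

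The second accession, AF273897, matched no gene in the table of RefSeq names. Its log2 ratio was 0.25, 0.22 and -0.04 on the earlier arrays and 0.12, 0.23 and 0.26 on the later ones, so the sides overlapped. The difference was 0.06 ± 0.13 (limma, adjusted p = 0.75; 95% interval -0.24 to 0.36). On all 6 arrays its stage signal was between 0.46 and 0.59 times the 95th percentile of blanks, so it was not told apart from blank spots. Of the 4898 tested probes in that state 13.9% were called, and AF273897 was not among them. With a signal this low, the missing call is no sign that the transcript stayed constant.

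**Figure D5:**
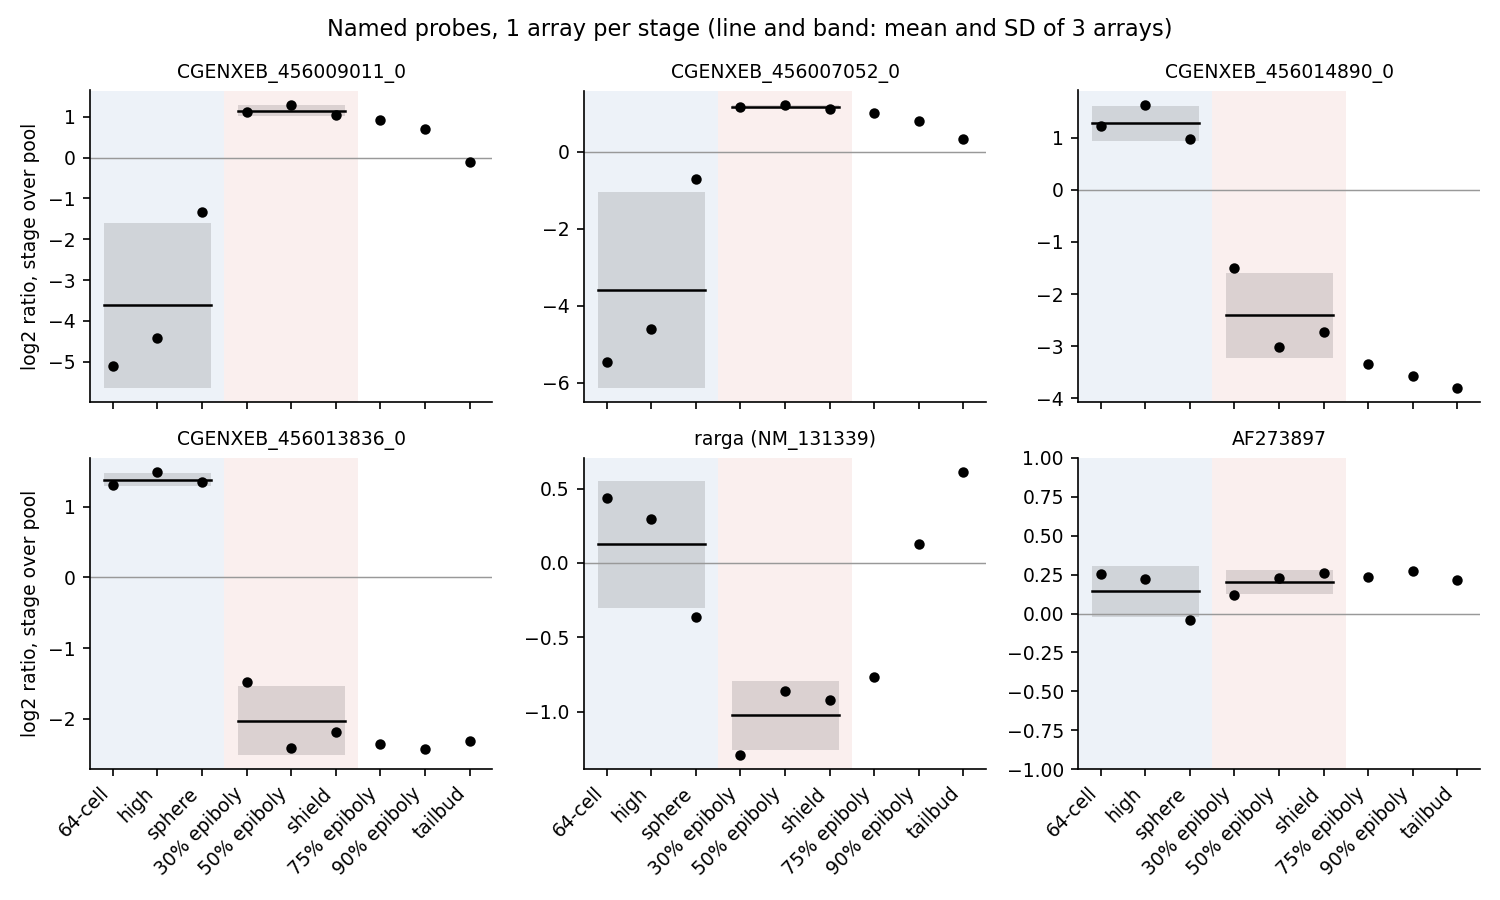
Log2 ratio to the pool at each of the 9 stages, 1 array each, for the 2 rising IDs, the 2 falling IDs, rarga and AF273897; black lines and grey bands give the mean and SD of the 3 arrays of a side, and the vertical scales differ. Sphere stands apart from 64-cell and high in both rising probes, and rarga returns to 0.61 at tailbud.

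The 3 arrays that followed, 75% epiboly, 90% epiboly and tailbud, took no part in the choice of called probes and show where these transcripts went next. Of the 1591 probes that rose at least 2-fold, the mean of the 3 following arrays lay beyond the later side's mean for 970 (61.0%). For 542 (34.1%) it lay between the 2 means but nearer to the later one, and for 79 (4.97%) nearer to the earlier side or beyond it. Of the 1381 that fell at least 2-fold the numbers were 897 (65.0%), 427 (30.9%) and 57 (4.13%). The probes between the 2 means had also moved part of the way back, so 4.97% and 4.13% are the shares that came back by more than 50% of the difference. With a following mean of -0.01 against 0.13 and -1.02, rarga was 1 of these 57. These positions are descriptions without a test, and the position of a probe is drawn from the same side means that called it.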

How the data were processed

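The deposited scanner tables hold red (Cy5, stage) and green (Cy3, pool) spot and local background intensity on a linear scale, not normalized, from Imagene software per the file headers, with a flag code per spot of unstated meaning. The deposited value table holds log2 ratios by the authors. They match, to within 0.001 for at least 99.2% of IDs on each array, log2 of background-subtracted red over green from the scanner tables, neither centred nor normalized. The column medians were, in stage order, 0.02, -0.90, -0.95, -0.80, -0.95, -0.89, -0.36, -0.41 and -0.51. The series text mentions dye swaps, but all 9 arrays analysed here had the same dyes, so a dye effect on a ratio cancels between the sides only if constant.

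Spot means and background medians were corrected by normexp (offset 50) and loess-normalized within arrays, control spots at weight 0, with limma 3.58.1 in R 4.3.3. Spots of an ID were averaged. Probes entered the test if, on at least 3 of the 6 arrays, the spot median was over the background median by 2 background SD in either channel. The sides were compared by lmFit and eBayes on the 6 arrays with two-sided p-values. These were adjusted by Benjamini-Hochberg over the 16105 probes (threshold 0.05, 8.38 total degrees of freedom). The same fit was also run on simulated data with independent errors. Such data cannot show how the fit behaves when neighbouring stages stand in for replicates. The IDs named are the 2 with the largest difference each way among called probes detected above blanks on all 6 arrays, unflagged and under a signal of 60000, plus both accessions. The sides and these rules were chosen with earlier results of these data known. Gene lists by symbol could not be applied, because the probe IDs have no symbols. The number of arrays limits the precision.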

Additional observations from a re-analysis of the deposited data

Results flagged for a closer look

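The control spots lie outside the comparison, and 8 kinds of them exceeded the 95th percentile of the blanks in the stage channel on all 6 arrays, which is why they are listed. Their lowest multiple of that level over the 6 arrays was 14.9 for CGENZFCTRL_40001_0, 18.5 for the pooled control, 1.96 for polyA and 2.43 for N6. In the dilution spots it was 23.3 for the undiluted spot, 14.1 at a dilution of 0.5, 5.21 at 0.25 and 1.27 at 0.125. All 8 had a higher mean log2 ratio at 30% epiboly to shield than at 64-cell to sphere. The difference was 0.66 for CGENZFCTRL_40001_0, 0.90 for the pooled control, 0.32 for polyA and 0.26 for N6. In the dilution spots it was 0.64 undiluted, 0.83 at 0.5, 1.01 at 0.25 and 1.05 at 0.125. These differences have no test, and the labels do not say what the spots contain. With 3 arrays on a side, no side was searched for a single array far from the others.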

How the results depend on the processing

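The count of rising probes stayed within 1.5 times its value under 20 of 23 alternatives and that of falling probes under 21 of 23. The exceptions were the test against a difference of 1, with 677 rising and 445 falling probes, the fit with a linear term in stage order, with 419 and 370, and the authors' value table as deposited, with 1198 rising probes. In that table limma estimated nearly the same variance for every probe, so its adjusted p-values are not comparable. The first 2 ask a narrower question by construction. The third count goes with the missing centring, since the same table with each array's median subtracted gave 3066 rising and 3548 falling probes. Leaving out 1 array gave 3118 to 3858 rising and 2540 to 3127 falling probes. Of the 3902 gains and 3091 losses, 3573 and 2864 were called again without sphere, the most for any single array left out. Without shield, the fewest were called again, 3076 (78.8%) and 2511 (81.2%). Median centring in place of loess called 2951 (75.6%) of the gains and 2963 (95.9%) of the losses again. The pool channel gave 0 calls under both normalizations. The fall of rarga was called under 21 of 23 alternatives, with differences from -1.95 to -0.83; it was not called against a difference of 1 (-1.15) or with the linear term (-0.83). Without 1 array its difference lay between -1.39 and -0.99. The difference of AF273897 changed sign in the value table as deposited (-0.10) and without sphere (-0.034) and was called nowhere (range -0.10 to 0.17; without 1 array -0.034 to 0.11). The 4 CGENXEB probes named kept their direction in all 23 alternatives, and 3 of them lost their call with the linear term only. The alternatives on IDs with several spots were added after the data were seen. No paired analysis was possible because the labels give no replicate numbers and each stage had 1 array.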

Other observations

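IDs that were spotted more than once behaved unlike those spotted once. There were 127 such IDs with 289 spots. Of these IDs 64 (50.4%) were called higher and 5 (3.94%) lower at 30% epiboly to shield, against 24.0% and 19.3% of the 15978 tested IDs with a single spot. The groups were not matched for brightness, with which calls became more frequent, nor for the averaging over spots. Spots of an ID did not always give the same value. The median range of their log2 ratio on an array was 0.37, and at the 90th percentile 1.09. In 12 of the 69 called IDs the spots differed in the sign of the difference between the sides. The pool signals of an ID's spots were over 4-fold apart for 15 of the 127 IDs, with a median of 1.46-fold. The 172 spots of CGENZFCTRL_40001_0 had an SD of the log2 ratio of 0.28 to 0.45 on an array. An SD over many spots and a range between the few spots of an ID are different measures. The values therefore do not show that an ID's spots differ more than repeated spots do. These values were looked at after the calls were known, and the labels do not say what the repeated spots carry. Treating each spot as its own feature gave 3946 rising and 3096 falling spots, and leaving the 127 IDs out gave 3839 rising and 3086 falling probes.

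The arrays of the earlier side had a wider spread of log2 ratios over probes. The SD was 0.86 at 64-cell, 0.81 at high and 0.70 at sphere, and between 0.45 and 0.48 on the 3 arrays of the later side.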
